A study of Mus musculus with 3 samples.

Results

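Tenocyte-like cells of the injured tendon were chosen by their measured transcripts, and 117 cells met the rule among 5629 barcodes of the tendon injury library and 9725 barcodes of the series. The series held 1 single-cell library each of bone marrow, blood, and tendon injury site, all from 10-week-old mice at day 3 after burn/tenotomy, in which a burn of the back was combined with transection of the Achilles tendon. Per the study's methods the mice were male C57BL/6J, and the labels name no allele or agent beyond the injury, which all groups share. Only the injury site was digested with collagenases and dispase, and the cells of every library were unsorted. How many mice contributed to each library is not stated in the labels or methods, so no value below has a replicate check, no statistical test was run, and no p-value is given.

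A barcode was kept with 200 or more detected genes and no more than 20% of its unique molecular identifiers (UMIs, each 1 captured transcript) from mitochondria, which left 4978 in the tendon library. Of these, 640 held at least 1% of their UMIs in the sum of *Col1a1*, *Col1a2*, *Col3a1*, and *Dcn*, 593 of those had no UMI of the leukocyte gene *Ptprc*, and 559 had none of the endothelial gene *Cdh5* either. These 559 are called stromal cells here. A sum of *Tnmd*, *Fmod*, *Thbs4*, and *Kera* of at least 5 UMIs per 10000 then set the 117 tenocyte-like cells apart from 442 other stromal cells. They were 20.9% of the stromal cells (exact binomial 95% interval 17.6% to 24.5%) and 2.35% of all cells past the filter (1.95% to 2.81%). No cell of the bone marrow library (1855 barcodes) or the blood library (2241 barcodes) passed the collagen step. Barcodes shared between libraries numbered 1 for tendon and bone marrow, 6 for tendon and blood, and 2 for bone marrow and blood, and 1 tenocyte-like cell carried a shared barcode.

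Tendon is built by tenocytes, elongated fibroblasts that lie in rows between bundles of type I collagen. The transcription factor scleraxis (*Scx*), which binds E-box motifs, and Mohawk (*Mkx*) mark the tendon lineage, and tenomodulin (*Tnmd*) is a membrane protein of mature tenocytes. Small leucine-rich proteoglycans such as fibromodulin (*Fmod*), keratocan (*Kera*), and decorin (*Dcn*) bind collagen and set the width of its fibrils, while thrombospondin 4 (*Thbs4*) and cartilage oligomeric matrix protein (*Comp*) are large secreted proteins of the tendon matrix. Lubricin (*Prg4*) coats gliding surfaces and is made by synovial lining as well as tendon.

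The 117 cells held 3998141 UMIs, with a median of 29297 per cell (2731 to 91807) and a median of 4786 detected genes. The other stromal cells held 15338058 UMIs with a median of 32132 per cell, so that both groups had been sequenced to a similar depth. As a rough guide to free RNA, 3192 leukocytes were used, which are cells of the same library with a *Ptprc* UMI and less than 1% collagen UMIs, and these had a median of 11203 UMIs. Their sum of *Tnmd*, *Fmod*, *Thbs4*, and *Kera* had a median of 0 and a highest value of 19.3 UMIs per 10000. Whether doublets or other cells were among them was not tested. Levels are given as CPM, a gene's summed UMIs in a group divided by all UMIs of that group and scaled to 1000000. Poisson intervals of levels, Clopper-Pearson intervals of shares, and intervals of ratios from the exact binomial split of UMIs are all at 95% and cover counting error only.

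The rule genes are a description, since they chose the cells. *Thbs4* was at 2908 CPM in tenocyte-like cells, 27.5 CPM in other stromal cells, and 4.93 CPM in leukocytes. *Fmod* was at 639, 8.61, and 0.582 CPM, *Tnmd* at 182, 8.67, and 0.0759 CPM, and *Kera* at 93.8, 0.196, and 0.0759 CPM in the same order. A *Thbs4* UMI was found in 97.4% of members, *Fmod* in 66.7%, *Tnmd* in 50.4%, and *Kera* in 33.3%. *Thbs4* had the most UMIs of the 4 genes in 103 members (88.0%), *Fmod* in 14 (12.0%), and *Tnmd* or *Kera* in none. A single rule gene was detected in 33 members, 2 genes in 28, 3 genes in 23, and all 4 in 33. The summed rule genes had a median of 29.3 UMIs per 10000 and a highest value of 266. Just inside the threshold the members lay at 5.19, 5.26, and 5.37 per 10000, and just outside it other stromal cells lay at 4.95, 4.64, and 4.63. There were 23 members between 5 and 10 per 10000, and 25 other stromal cells lay between 3 and 5, while 297 other stromal cells had none of the 4 transcripts.

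**Figure D1:**
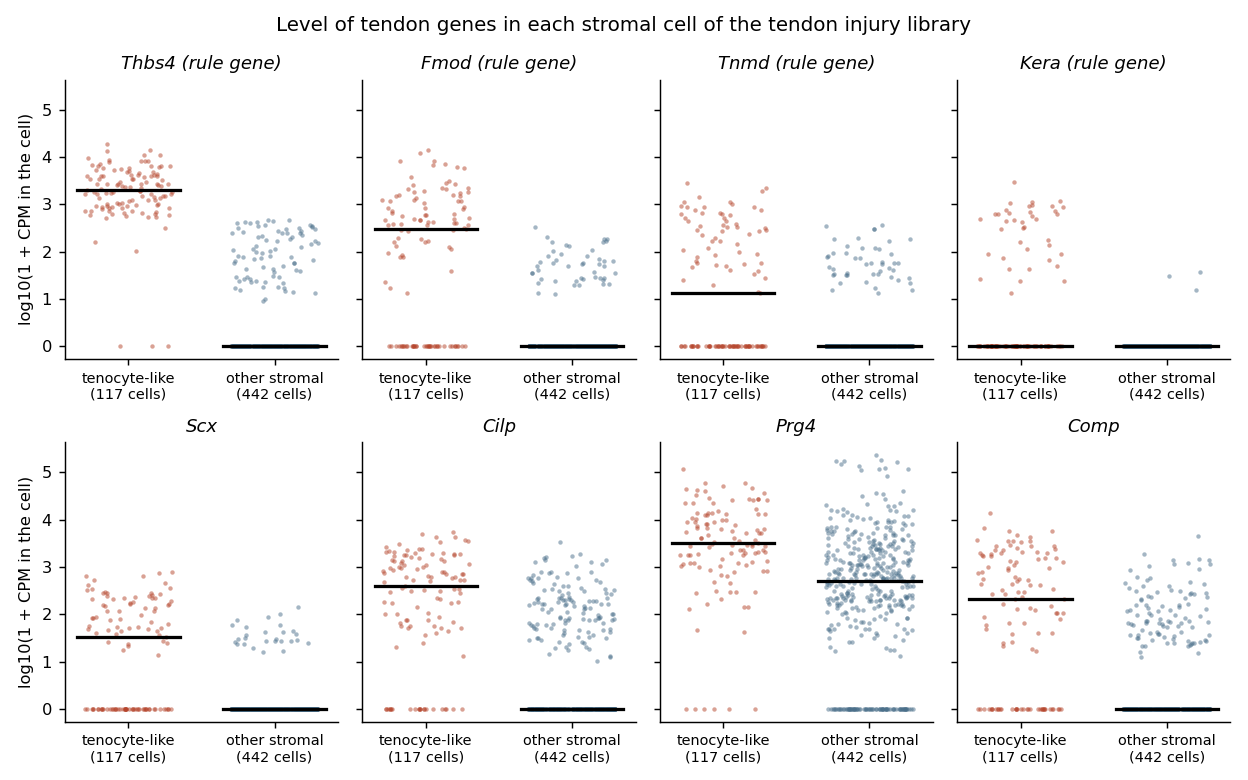
Level of 8 tendon genes in each of 117 tenocyte-like and 442 other stromal cells, as log10(1 + CPM in the cell), with 1 point per cell and a black bar at the median. Thbs4, Fmod, Tnmd, and Kera chose the cells, so their separation is fixed by the rule, whereas Prg4 overlapped between the groups, with a median of 3227 CPM in tenocyte-like and 519 CPM in other stromal cells.

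On the genome, *Thbs4* (ENSMUSG00000021702) lies on chromosome 13 from 92751590 to 92794818 on the minus strand, *Fmod* (ENSMUSG00000041559) on chromosome 1 from 134037254 to 134048277, and *Cilp* (ENSMUSG00000042254), which encodes cartilage intermediate layer protein, on chromosome 9 from 65265180 to 65280605, both on the plus strand (GRCm38, GENCODE M21, matched by identifier). The 250 bases before the start of each gene are shown because the factor *Scx* was among the genes that differed most. They come from RefSeq on GRCm38.p6, read 5′ to 3′ on the strand of the gene, with each match to the E-box CANNTG in capitals, a motif that reads alike on both strands. The windows are chr13:92794819-92795068 for *Thbs4* (minus strand), chr1:134037004-134037253 for *Fmod*, and chr9:65264930-65265179 for *Cilp* (plus strand).
Thbs4: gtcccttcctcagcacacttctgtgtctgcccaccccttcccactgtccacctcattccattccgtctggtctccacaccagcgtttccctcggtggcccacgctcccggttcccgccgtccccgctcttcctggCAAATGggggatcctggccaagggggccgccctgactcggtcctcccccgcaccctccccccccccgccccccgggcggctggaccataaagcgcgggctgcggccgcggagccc
Fmod: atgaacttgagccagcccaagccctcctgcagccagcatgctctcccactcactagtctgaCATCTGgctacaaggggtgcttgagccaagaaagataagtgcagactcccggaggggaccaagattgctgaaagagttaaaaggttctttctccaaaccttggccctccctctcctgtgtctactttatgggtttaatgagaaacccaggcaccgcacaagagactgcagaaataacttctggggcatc
Cilp: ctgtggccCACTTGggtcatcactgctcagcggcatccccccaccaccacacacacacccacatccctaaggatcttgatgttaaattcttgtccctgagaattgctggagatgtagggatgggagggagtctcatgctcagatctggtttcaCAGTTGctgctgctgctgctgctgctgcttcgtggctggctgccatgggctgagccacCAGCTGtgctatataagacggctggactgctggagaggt
The *Thbs4* and *Fmod* windows held 1 match each and the *Cilp* window 3, whereas the windows of *Tnmd* and *Kera* held none. Of 32851 such windows of all genes, 66.2% held at least 1 match and 12.2% held 3 or more. Among the 153 windows of 130 genes at least 2-fold higher in tenocyte-like cells, the share was 67.3%, near that of all windows. A match describes these letters only and is not evidence of binding.

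Of the markers that the rule did not use, *Scx* was at 115 CPM (459 UMIs) in tenocyte-like cells, 3.13 CPM in other stromal cells, and 0.506 CPM in leukocytes. The log2 ratio of tenocyte-like to other stromal cells was 5.20 (4.77 to 5.66). *Scx* was found in 56.4% of members and 6.11% of other stromal cells, against 0.564% of leukocytes. *Cilp* was at 725 CPM against 56.8 CPM, a log2 ratio of 3.67 (3.56 to 3.78), and at 0.455 CPM in leukocytes. When each cell was thinned to 1000 UMIs, a *Cilp* UMI remained in 39.3% of members (30.4% to 48.8%) and 6.36% of other stromal cells (4.27% to 9.07%), whereas the unthinned shares were 81.2% and 29.6%. *Prg4* was abundant in both groups, at 10174 CPM in members and 6129 CPM in other stromal cells, a log2 ratio of only 0.73 (0.71 to 0.75). In single members it ranged from 0 to 116879 CPM with a median of 3227, and in other stromal cells the median was 519 and the highest value was 232359. Of the 3 markers that the rule did not use, *Scx* and *Cilp* were thus more than 2-fold higher than in the rest of the stroma, and *Prg4* was not.

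Across all genes, 9193 had at least 100 UMIs over both groups, with the 8 rule genes left out. Of these, 192 (2.09%) were at least 2-fold higher in tenocyte-like cells and 273 (2.97%) at least 2-fold lower, and 40 and 81 genes differed by at least 4-fold in these directions. The median log2 ratio over all genes was -0.07. The counts of 2-fold higher and lower members in each gene list below stand against these shares of 2.09% and 2.97%. The UMIs of 34 of the 192 higher genes and of 21 of the 273 lower genes lay by more than 50% in 5 cells of the higher group, so that the level of these genes was that of few cells. At a stricter stromal threshold of 3% of UMIs, which kept 45 members, 121 genes were higher. With fewer cells, fewer genes could reach 100 UMIs there, so this count is not a share to set beside 2.09%.

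**Figure D2:**
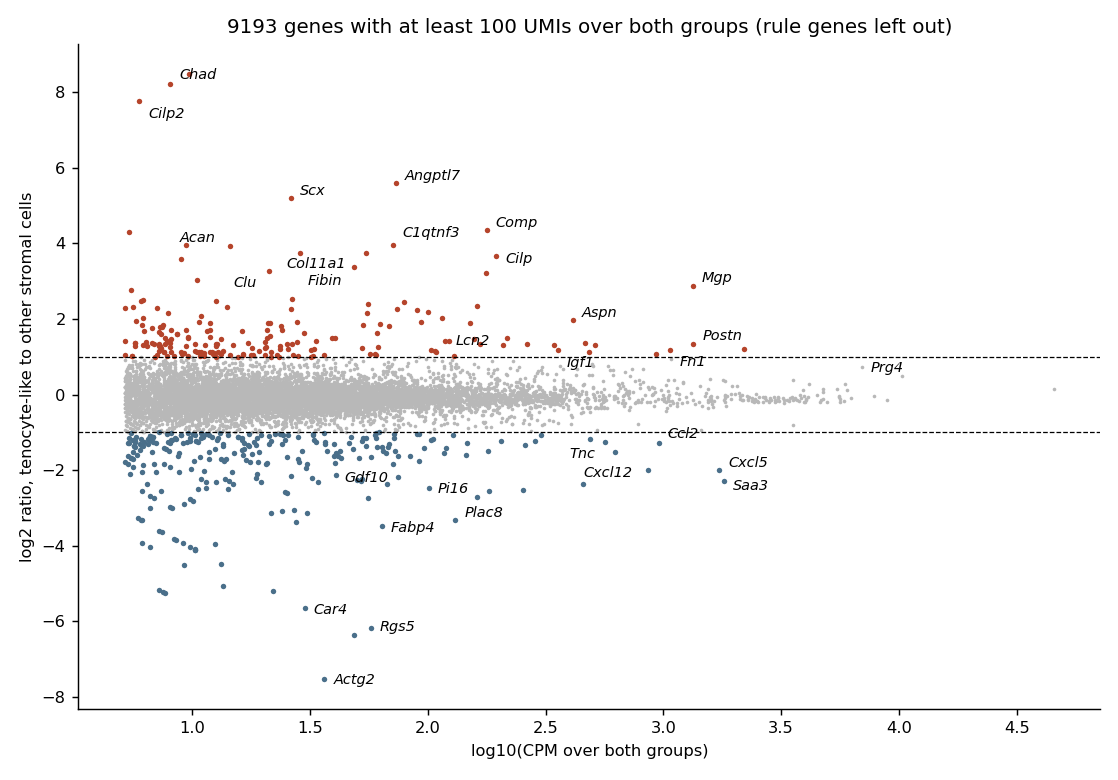
Log2 ratio of tenocyte-like to other stromal cells against log10 of the CPM over both groups for 9193 genes, with dashed lines at 2-fold, red points for 192 higher genes, and blue points for 273 lower genes. Chad, Cilp2, Angptl7, and Scx stand highest among the named genes, while abundant Prg4 lies inside the lines. The unlabelled point above Chad is Hbb-bs, whose UMIs in these cells came from 1 cell.

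Among 20 tendon markers outside the rule, 18 had enough UMIs, of which 13 were at least 2-fold higher and 1 (*Tnc*) at least 2-fold lower, with a median log2 ratio of 2.76 against -0.07 over all genes. The cells themselves were chosen by other tendon genes, so this count is a description and not independent support for their name. Chondroadherin (*Chad*), a leucine-rich protein that binds collagen, was at 38.5 CPM in members and 0.130 CPM in other stromal cells, a log2 ratio of 8.21 (6.33 to 11.3) that rests on 2 UMIs in the latter. *Cilp2*, a relative of *Cilp*, was at 28.3 CPM against 0.130 CPM, with a ratio of 7.76 (5.87 to 10.8) that also rests on 2 UMIs. *Comp* was at 724 CPM against 35.6 CPM (4.35, 4.21 to 4.48) and was found after thinning in 40.2% of members and 4.55% of other stromal cells (69.2% and 22.9% unthinned). The secreted factor *Angptl7* was at 327 CPM against 6.78 CPM (5.59, 5.30 to 5.89), and 53.0% of its UMIs came from 5 members.

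*Col11a1*, a minor fibrillar collagen that is copolymerized with types I and II, was at 206 CPM against 15.4 CPM (3.74, 3.53 to 3.96). *Fibin* followed at 173 against 16.6 CPM (3.38), and *1500015O10Rik*, listed in RefSeq as *Ecrg4*, at 606 against 64.9 CPM (3.22). The secreted WNT inhibitor *Wif1* was at 19.3 against 3.91 CPM (2.30), *Cpxm2* at 70.5 against 14.6 CPM (2.27), and *Clec11a* at 144 against 32.1 CPM (2.17). *Mkx* had under 100 UMIs in all and was not counted, at 15.8 CPM against 1.17 CPM (3.75, 2.97 to 4.59). Not every tendon gene was higher, since tenascin C (*Tnc*), a matrix protein of tendon and of wounds, was at 268 CPM in members and 643 CPM in other stromal cells (-1.26), although it was detected in 71.8% and 57.9% of these cells. *Tppp3*, a gene of tendon sheath progenitors, was at 33 and 33.2 CPM (-0.01, -0.29 to 0.27).

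Other genes among the 20 highest ratios included *C1qtnf3* at 277 against 17.7 CPM (3.97, 3.78 to 4.17), *Col8a2* at 36.3 against 2.35 CPM (3.95), the cartilage proteoglycan aggrecan (*Acan*) at 56.0 against 3.65 CPM (3.94), and the potassium channel gene *Kcnma1* at 33 against 2.74 CPM (3.59). The kinase gene *Stk32a* had a ratio of 4.30, the chaperone clusterin (*Clu*) 3.28, *Cox4i2* 3.03, the prolyl hydroxylase gene *P3h2* 2.78, *Myoc* 2.53, and *Lman1l* 2.50. Matrix Gla protein (*Mgp*), an inhibitor of calcification, was by UMIs the most abundant of these 20, at 4234 CPM in members and 574 CPM in other stromal cells (2.88, 2.85 to 2.92). It was found in 94.9% of members, and after thinning in 66.7% of members against 28.6% of other stromal cells. Of *Stk32a*, *Cox4i2*, *Clu*, *C1qtnf3*, *Myoc*, *Lman1l*, and *Chad*, more than 50% of the UMIs in members came from 5 cells.

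Of 11 fibrillar and fibril-associated collagens outside the rule, *Col11a1* was at least 2-fold higher and *Col5a3* at least 2-fold lower, the latter at 56.0 against 168 CPM (-1.59). *Col5a2* was at 1283 against 981 CPM (0.39), *Col5a1* at 545 against 554 CPM (-0.02), and *Col6a2* at 445 against 268 CPM (0.73). The 4 genes whose sum had to reach 1% of UMIs in both groups are given as levels only, with *Col1a1* at 7146 against 5766 CPM, *Col1a2* at 7471 against 5622 CPM, *Col3a1* at 7431 against 8388 CPM, and *Dcn* at 6386 against 3867 CPM. Among 20 genes of collagen processing and crosslinking, none was 2-fold higher and 1 was lower (*Adamts14*, which cleaves the procollagen propeptide, 1.5 against 6.45 CPM), near the 2.09% and 2.97% of all genes. The collagen chaperone gene *Serpinh1* was at 1551 against 1502 CPM (0.05), *Lox* at 1375 against 1045 CPM (0.40), *Plod2* at 296 against 159 CPM (0.90), and *Loxl2* at 107 against 195 CPM (-0.86).

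Of 8 small leucine-rich proteoglycans outside the rule, 4 were at least 2-fold higher and none was lower. Asporin (*Aspn*), a proteoglycan that binds collagen and TGF-β, was at 1003 against 257 CPM (1.96, 1.90 to 2.03), *Ogn* at 509 against 201 CPM (1.34), and *Omd* at 13.8 against 4.30 CPM (1.68), with *Chad* as the 4th. Biglycan (*Bgn*) was at 2227 against 1724 CPM (0.37) and lumican (*Lum*) at 852 against 509 CPM (0.74). Among 27 other matrix genes, 9 were higher and 1 (*Tnc*) was lower. Periostin (*Postn*) was at 2582 against 1015 CPM (1.35), although it was detected in 65.0% of members and 74.2% of other stromal cells. Fibronectin (*Fn1*) was at 1930 against 847 CPM (1.19), *Mfap4* at 226 against 59.7 CPM (1.92), and elastin (*Eln*) at 318 against 116 CPM (1.46). *Eln* was detected in 41.0% of members and 56.3% of other stromal cells, 59.9% of its UMIs in members came from 5 cells, and of those of *Spp1* (852 against 388 CPM, 1.13) 76.9% did. *Sparc* was at 6795 against 5644 CPM (0.27).

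**Figure D3:**
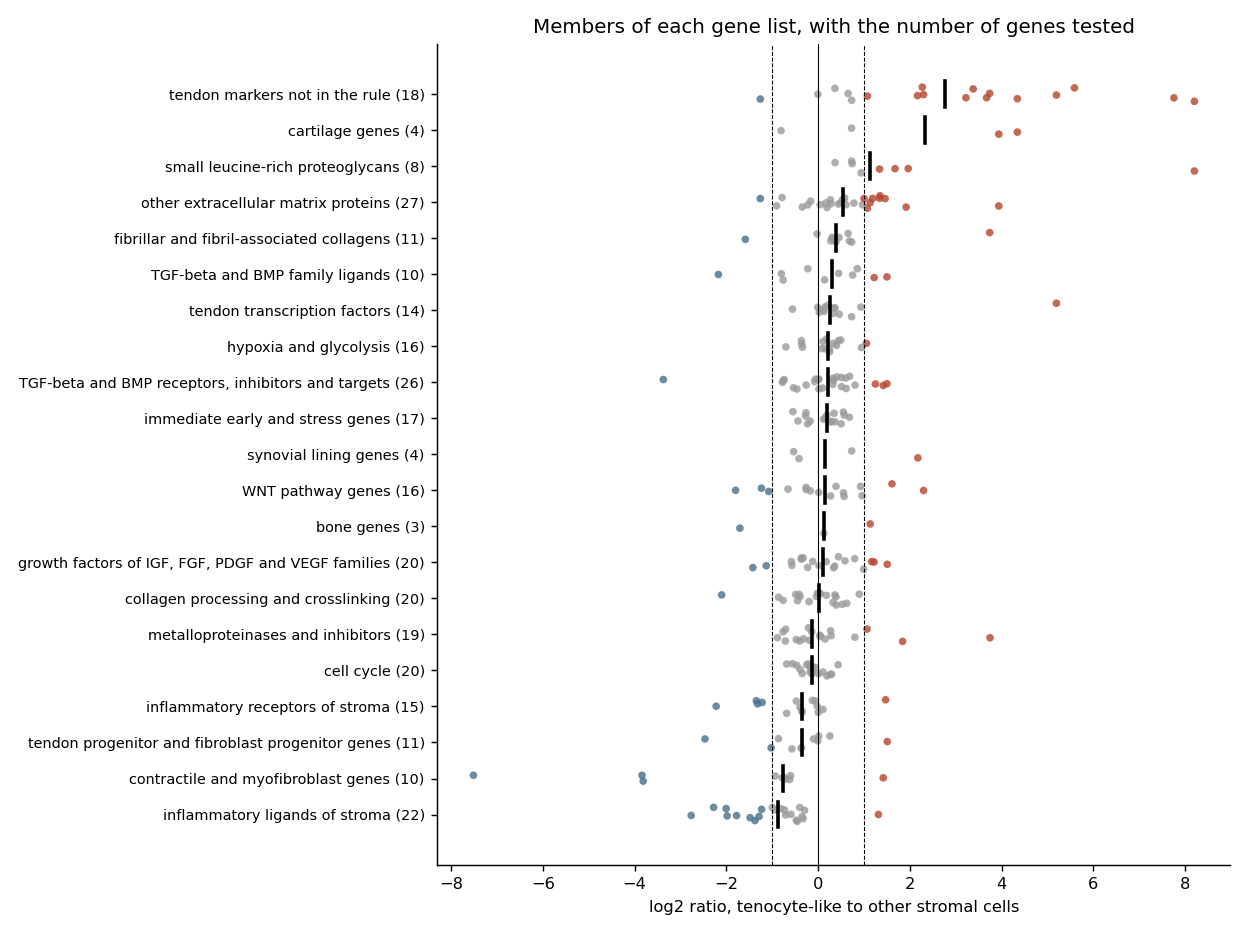
Log2 ratio of tenocyte-like to other stromal cells for the members of 21 gene lists that had at least 100 UMIs over both groups, with 1 point per gene, a black bar at the list's median, and dashed lines at 2-fold. Tendon markers lie mostly to the right, with 13 of 18 past 2-fold, and inflammatory ligands mostly to the left, with 9 of 22 past 2-fold.

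Of 16 cartilage genes, 4 had enough UMIs, of which *Acan* and *Comp* were higher, *Sox9*, the master factor of cartilage, was at 49.3 against 29.7 CPM (0.73), and *Sox5* at 8.25 against 14.5 CPM (-0.81). *Col9a1*, *Col9a2*, *Col10a1*, and *Matn1* had 0 UMIs in members, and *Col2a1*, the main collagen of cartilage, had 3. Of 11 bone genes, 3 had enough UMIs, of which *Spp1*, which encodes osteopontin, was higher (852 against 388 CPM, 1.13, with 76.9% of its UMIs in members from 5 cells) and *Alpl*, alkaline phosphatase, was lower. The osteoblast factor *Sp7* and *Dmp1* had 0 UMIs, and *Runx2* was at 15.0 against 13.8 CPM (0.13, -0.31 to 0.55). *Alpl* was at 4.75 against 15.5 CPM (-1.71). A count of 0 in 3998141 UMIs allows up to 3 UMIs, so low levels of these transcripts were not detectable at this depth.

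Apart from *Scx*, none of 14 tendon transcription factors with enough UMIs differed 2-fold. *Mkx*, also of this list, had too few UMIs to be counted and was higher, as given above. *Egr1*, an early growth response factor that drives collagen genes, was at 672 against 521 CPM (0.37), *Klf4* at 428 against 398 CPM (0.10), *Klf2* at 194 against 141 CPM (0.46), and *Foxo1* at 28.3 against 14.8 CPM (0.93). None of 17 immediate early and stress genes differed 2-fold either, with *Fos* at 1171 against 730 CPM (0.68) and *Jun* at 937 against 661 CPM (0.50). Hypoxia and glycolysis genes had a median log2 ratio of 0.21, and 1 of 16 was higher (*Bnip3*, 61.5 against 29.7 CPM, 1.05).

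Progenitor genes of connective tissue had a median log2 ratio of -0.36, with 1 of 11 higher and 2 lower. *Pi16* and *Dpp4*, which mark fibroblasts around vessels and in fascia, were at 22.0 against 122 CPM (-2.47) and 5.25 against 10.7 CPM (-1.03). *Igfbp6* was at 447 against 157 CPM (1.51), and *Ly6a*, which encodes Sca-1, was at 951 against 1020 CPM (-0.10). Of 4 synovial lining genes with enough UMIs, the growth factor gene *Hbegf* was higher at 263 against 58.3 CPM (2.17), while *Has1* was at 149 against 199 CPM (-0.42) and *Cd55* at 19.8 against 28.6 CPM (-0.53). *Clic5* and *Tspan15* of that list had 0 UMIs in members.

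Signaling genes of the TGF-β family, which drives tendon formation and repair, differed in a few members. Of 10 ligands, *Tgfb3* was at 80.3 against 28.4 CPM (1.50, 1.29 to 1.71) and *Bmp2*, an inducer of bone, at 37.3 against 16.0 CPM (1.22, 0.92 to 1.52), while *Gdf10* was at 19.8 against 89.3 CPM (-2.18). *Tgfb2* was at 100.3 against 59.5 CPM (0.75) and *Bmp1* at 77.8 against 132 CPM (-0.76). Of 26 receptors, inhibitors, and targets, 3 were higher, namely *Ltbp1* (83.0 against 29.3 CPM, 1.50), *Ltbp2* (244 against 91.1 CPM, 1.42), and *Ltbp3* (114 against 47.9 CPM, 1.25), of which *Ltbp1* and *Ltbp3* hold latent TGF-β in the matrix. Of the growth factor list, 3 of 20 were higher and 2 lower, against 2.09% and 2.97% of all genes, with *Igf1*, a growth factor for tendon matrix synthesis, at 635 against 282 CPM (1.17, 1.10 to 1.24) and *Fgf7* at 51.3 against 138 CPM (-1.42). Of 16 WNT pathway genes, 2 were higher (*Wif1* and *Wnt9a*, the latter with a ratio of 1.61) and 3 lower (*Rspo3* at -1.80, *Sfrp2* at -1.24, and *Wnt5a* at -1.08), against the same shares of all genes.

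Inflammatory ligands were the list with the lowest median, at -0.88, with 9 of 22 at least 2-fold lower and 1 higher, against 2.97% lower and 2.09% higher among all genes. The acute phase gene *Saa3* was at 444 CPM in members and 2159 CPM in other stromal cells (-2.28, -2.35 to -2.21). The neutrophil chemokine gene *Cxcl5* was at 507 against 2037 CPM (-2.01), the monocyte chemokine gene *Ccl2* at 445 against 1087 CPM (-1.29), and *Cxcl12*, which retains stem cells and leukocytes, at 257 against 1017 CPM (-1.99). *Cxcl14* was the most abundant ligand of the list in both groups, at 2224 against 3900 CPM (-0.81), and *Cxcl1* was at 837 against 1610 CPM (-0.94). *Il6* was at 74.3 against 208 CPM (-1.48). *Csf3*, which encodes granulocyte colony-stimulating factor, was at 1.75 against 11.9 CPM (-2.77), with 7 UMIs in members. The exception was the iron-binding protein gene *Lcn2*, at 396 against 159 CPM (1.31, 1.22 to 1.41). Of 15 receptors, 4 were lower, among them those of interleukin 1 and 33, with *Il1r1* at 99.5 against 232 CPM (-1.22), *Il1rap* at 3.50 against 16.4 CPM (-2.22), *Il1rl1* at 116 against 295 CPM (-1.35), and *Il17ra* at 18.3 against 45.6 CPM (-1.32). The receptor gene *Tlr2* was higher, at 26.8 against 9.65 CPM (1.47).

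Of 19 metalloproteinases and inhibitors, 3 were higher, but for *Mmp13* (108 against 8.02 CPM) 98.6% and for *Mmp3* (1596 against 762 CPM) 62.1% of the UMIs in members came from 5 cells, and *Mmp3* was detected in 37.6% of members and 64.9% of other stromal cells. *Mmp16* was at 14.3 against 3.98 CPM (1.84). The inhibitor gene *Timp1* was at 4813 against 3985 CPM (0.27) and *Timp2* at 749 against 430 CPM (0.80). Of 10 contractile genes, smooth muscle *Actg2*, *Cnn1*, and *Lmod1* were lower, with 1, 0, and 0 UMIs in members, while 1 (*Ltbp2*, given above) was higher. *Acta2*, which marks myofibroblasts, was at 304 against 581 CPM (-0.93). None of 20 cell cycle genes differed 2-fold, near the 2.09% and 2.97% of all genes, with *Birc5* at 123 against 133 CPM (-0.11), *Ube2c* at 120 against 111 CPM (0.11), and *Stmn1* at 155 against 135 CPM (0.19). After thinning, 21.4% of members (14.3% to 29.9%) and 28.2% of other stromal cells (24.0% to 32.6%) held a UMI of 10 genes of the G2 and M phases, intervals that overlap, against 6.91% of leukocytes.

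Among the 20 lowest ratios, *Rgs5*, a marker of pericytes, was at 1.0 against 72.1 CPM (-6.17), *Abcc9* at 3.00 against 26.5 CPM (-3.14), and *Fabp4*, a lipid-binding protein gene of fat and capillaries, at 7.0 against 78.4 CPM (-3.48). *Car4*, *Apold1*, and *St6galnac5* had 0 UMIs in members, so that with a floor of 3 UMIs over the group their log2 ratios were at most -5.66, -3.65, and -3.60. *Plac8* was at 16.0 against 160 CPM (-3.32), and the interferon-induced gene *Ifitm1* at 10.3 against 67.9 CPM (-2.73). *Fmo2* had 1 UMI in members (-5.26, -10.6 to -2.76) and *Irx1* 2 UMIs (-4.04, -7.10 to -2.15), while *Gpr176*, *Stc1*, and *Gata6* had 3 UMIs each, with intervals of the ratio that reached from -5.62 to -1.69. The remaining genes, with ratios between -3.96 and -2.81, were *Sdpr*, *Depdc5*, *Ppp1r14a*, *Gabra3*, *Serpina3g*, and *Cyp2f2*.

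Summed markers of pericytes and of adipocytes were lower in members, but this did not hold for every other cell type. The 6 pericyte and smooth muscle markers summed to 49.3 CPM in members, of which *Cspg4* made up 38.3 CPM, and to 170 CPM in other stromal cells, of which *Rgs5* made up 72.1 CPM. *Cspg4* itself went the other way, at 38.3 against 7.69 CPM (2.31, 1.96 to 2.67). It was detected in 47.9% of members and 14.7% of other stromal cells. The 6 markers together exceeded 2 UMIs per 10000 in 4 members and 50 other stromal cells. The adipocyte markers summed to 7.0 and 79.7 CPM, nearly all of it *Fabp4*, with *Adipoq*, *Plin1*, *Lep*, and *Cidec* at 0 in members. Leaving out cells over 2 UMIs per 10000 in the pericyte, adipocyte, or erythroid list left 112 members and 372 other stromal cells, with 197 higher and 221 lower genes, and the ratio was then -0.19 for *Rgs5* and 0.03 for *Ppp1r14a*. Endothelial *Kdr* and *Cldn5* (*Cdh5* is 0 by the rule), Schwann cell *Sox10* and *Ncmap*, and 5 of 7 skeletal muscle markers (*Ckm*, *Myh1*, *Myh4*, *Pax7*, *Myod1*) had 0 UMIs in members. The Schwann cell list as a whole still summed to 202 CPM in members and 180 CPM in other stromal cells. Nearly all of it was *Pmp22*, at 198 and 177 CPM. That list exceeded 2 UMIs per 10000 in 54 members and 165 other stromal cells. Monocyte and macrophage markers summed to 69.8 CPM in members, 47.7 CPM in other stromal cells, and 13662 CPM in leukocytes, and neutrophil markers to 41.0, 40.9, and 12478 CPM. Keratinocyte markers summed to 40.8, 35.5, and 446 CPM, with *Krt14* the most abundant in each. Lymphocyte markers summed to 0.250 CPM in members, and the leukocyte markers other than *Ptprc*, which is 0 by the rule, to 21.8 CPM. Erythroid markers summed to 55.3 CPM, from 1 cell at 116 UMIs per 10000. The part of such RNA in the ratios of other genes was not tested.

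The tenocyte-like cells varied widely among themselves. When they were split into 3 equal groups of 39 cells by their summed rule genes (5.19 to 16.5, 16.5 to 46.5, and 49.4 to 266 UMIs per 10000), a split chosen after the values had been seen, *Comp* was at 94.5, 528, and 1790 CPM from the lowest to the highest group. *Angptl7* was at 52.1, 228, and 810 CPM, *Col11a1* at 72.9, 174, and 419 CPM, *Scx* at 41.7, 89.3, and 242 CPM, and *Mkx* at 3.47, 15.2, and 32.3 CPM. *Chad* was at 0.695, 29.1, and 99.6 CPM and *Cilp2* at 0, 3.46, and 97.0 CPM, so that both were at or near 0 in the lowest group. *Col1a1* was at 5844, 6348, and 9863 CPM and *Dcn* at 3971, 5690, and 10411 CPM, whereas *Col3a1* was at 8081, 6879, and 7306 CPM and *Aspn* at 951, 1174, and 849 CPM.

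Of the 22 inflammatory ligands, 19 were lower in the highest than in the lowest group, 16 of them falling in order over the 3 groups, and 3 were higher. Among all 9193 genes, 61.8% were lower in the highest than in the lowest group, 25.9% fell in order, and 38.0% were higher. Of the 18 tendon markers, 15 were higher in the highest than in the lowest group, but the groups were formed from the summed rule genes, themselves tendon genes, so these counts are a description. With the cell holding most UMIs of the gene left out of each group, a repeat chosen after seeing the data, 19 ligands were lower in the highest group, 13 falling in order, and 16 tendon markers were higher, against 64.1% lower and 35.6% higher among all genes. *Ccl2* was at 635, 408, and 245 CPM from the lowest to the highest group, *Ccl7* at 568, 433, and 255 CPM, and *Cxcl14* at 2726, 2561, and 1139 CPM. *Cxcl1* was at 1025, 933, and 468 CPM and *Cxcl2* at 536, 318, and 92.5 CPM, but without those cells *Cxcl1* was at 828, 857, and 402 CPM and *Cxcl2* at 236, 261, and 54.5 CPM, so that their lowest and middle groups changed order. *Cxcl5* was at 967, 361, and 100.5 CPM and, without those cells, at 674, 87.7, and 12.4 CPM. The 3 ligands that were higher in the highest group were *Il33* at 88.9, 90.0, and 151 CPM, *Lcn2* at 444, 140, and 666 CPM, and *Ccl19* at 1.39, 11.1, and 5.39 CPM. *Saa3* was at 563, 341, and 426 CPM, and at 348, 222, and 140 CPM without those cells. Of 20 cell cycle genes, 17 were lower in the highest than in the lowest group and 3 fell in order. *Ube2c* was at 145, 172, and 19.7 CPM and *Mki67* at 77.8, 189, and 47.6 CPM. *Mcm2*, among the 3 genes higher in the highest group, was at 16.0, 19.4, and 18.9 CPM. *Rrm2* was at 57.6, 60.9, and 55.7 CPM, but 1 cell held 53.2% of its UMIs in the highest group. With the cell holding most *Rrm2* UMIs left out of each group, it was at 42.6, 54.1, and 28.4 CPM. *Mcm3* was at 37.5, 36.7, and 32.3 CPM and *Tyms* at 93.8, 124, and 72.7 CPM. Without such cells, 17 of the 20 genes were again lower in the highest group. The median depth was 28770, 36011, and 22887 UMIs per cell, so the group with the highest tendon levels was the shallowest.

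**Figure D4:**
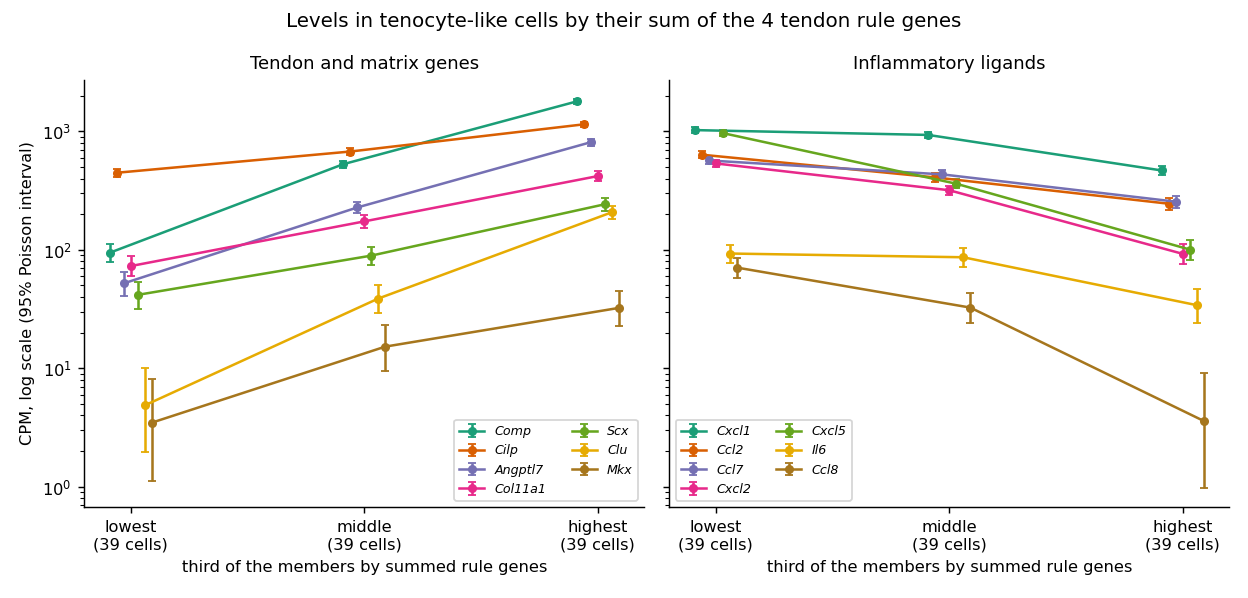
Levels of 7 tendon and matrix genes and 7 inflammatory ligands, both chosen after their values had been seen, in the 117 tenocyte-like cells, split into 3 groups of 39 by summed rule genes, in CPM on a log axis with 95% Poisson intervals. The tendon genes are highest in the group with most rule gene UMIs and these ligands are lowest there.

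Some tendon genes outside the rule were found in the same cells and others were not. *Angptl7* was detected in 79.2% of 24 cells with a *Chad* UMI and in 22.6% of the 93 without, although cells with *Chad* were shallower (median 19412 against 36011 UMIs). *Scx* was detected in 58.3% and 55.9% of the same cells, and in 56.8% of 95 cells with *Cilp* and 54.5% of 22 without. *Angptl7* was detected in 17.4% of 46 cells with *C1qtnf3* and 45.1% of 71 without, although cells with *C1qtnf3* were deeper (median 39172 against 21484 UMIs). *Chad* was found in 1 of 31 cells with *Mki67* (3.23%) and in 26.7% of 86 cells without it, with medians of 56666 and 22901 UMIs. These pairs were picked from all pairs computed after their values had been seen and they describe 1 library.

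**Figure D5:**
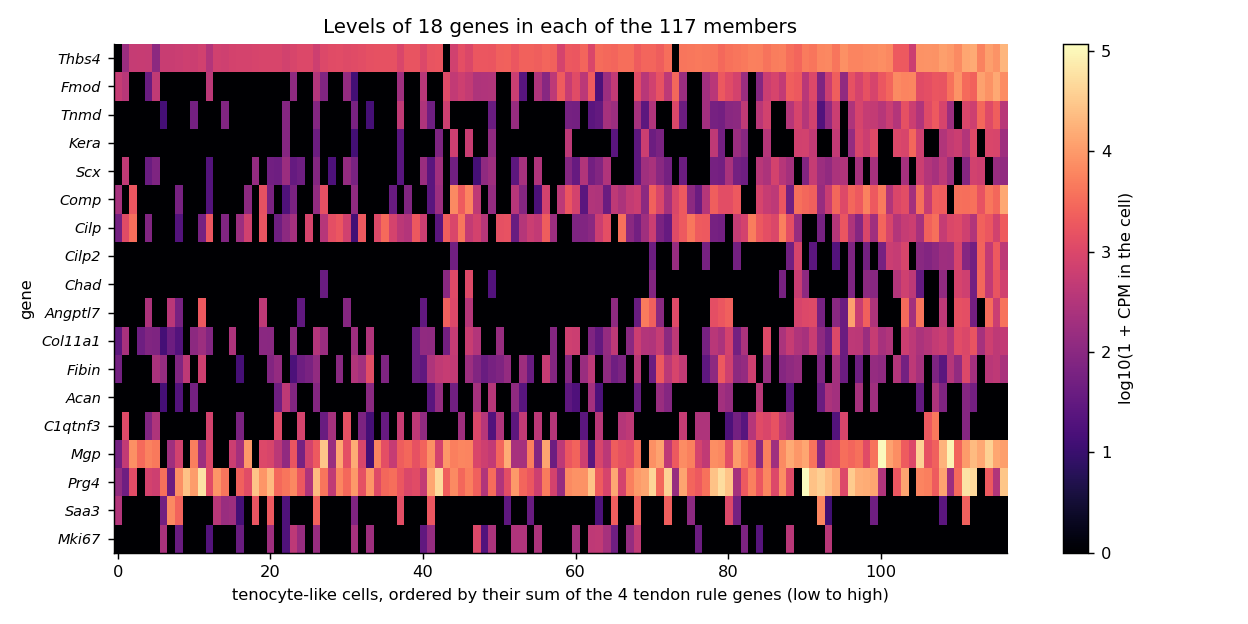
Levels of 18 genes in each of 117 tenocyte-like cells, as log10(1 + CPM in the cell) by color, with cells ordered from low to high summed rule genes. Kera, Cilp2, and Chad are detected mostly at the right, whereas Prg4 and Mgp are found along the whole row.

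Cells led by *Fmod* in place of *Thbs4* were 14 and were shallower, with a median of 14037 against 30987 UMIs. They held 161 CPM of *Chad* and 174 CPM of *Cilp2*, against 28 and 15.8 CPM in the 103 cells led by *Thbs4*, 12773 against 6663 CPM of *Col1a1*, and 1217 against 448 CPM of *Ogn*. *Scx* was at 111 against 115 CPM and *Cilp* at 759 against 722 CPM, but 1 cell held 57.1% of the *Scx* and 36.7% of the *Cilp* UMIs of the 14 cells. *Saa3* was at 37.9 CPM, from 1 cell, against 479 CPM.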

How the data were processed

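The deposited files hold UMI counts per gene and cell, which the authors produced from 10x Genomics 3′ libraries and did not normalize; the file headers name Cell Ranger 5.0.1. The processing notes of the submitters name mm10. In a 3′ assay a UMI stands for 1 transcript whatever its length. The total was 49580625 UMIs for bone marrow, 22542581 for blood, and 90621052 for the tendon injury site, with medians of 22836, 8316, and 11082 per barcode. Genes in the comparison had at least 100 UMIs over both groups.

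The cells, gene lists, and alternatives were chosen with earlier results of these data known. The genes named are the markers and rule genes, from each list the 4 with the highest level and the 2 with the largest ratio in each direction, and the 20 largest and 20 smallest ratios among genes with a UMI in 10% or more of the cells in the group where they were higher. Genes outside that rule (*Hbb-bs*, *Mkx*, genes in list counts, and those in the 3 groups of members and in cell pairs) were named after their values had been seen. A gene within the rule is not reported here. Cells were not used as replicates. Doublets were kept, and an alternative removed the highest Scrublet scores at 0.8% of cells per 1000 cells. The computation of ratios and intervals was checked on simulated counts with known folds, which are not quoted. Python 3.11.15, numpy 2.4.6, scipy 1.17.1, pandas 2.3.3, scanpy 1.11.5, and matplotlib 3.10.9 were used.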

Additional observations from a re-analysis of the deposited data

Results flagged for a closer look

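Tendon markers appeared in libraries that the comparison did not use. The blood library held 4915 *Prg4* UMIs (218 CPM), and 99.2% of them lay in 33 cells with at least 5 *Prg4* UMIs per 10000. All 33 held *Ptprc*, *Lyz2*, and *Icam2* UMIs, 32 held *Csf1r* and *Adgre1*, and 29 held *Gata6*, with 91 of the library's 94 *Gata6* UMIs. They held no UMI of *Thbs4*, *Fmod*, *Tnmd*, *Scx*, *Col1a1*, or *Col1a2*. The bone marrow library held 10 *Thbs4* UMIs in 10 cells and 6 *Prg4* UMIs in 6 cells. A count of 0 allows up to 3 UMIs, and the origin of these transcripts was not tested.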

How the results depend on the processing

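No paired analysis was possible because each tissue has 1 library and the result comes from no test. Of 41 genes named as markers or as largest or smallest ratios, 40 kept their direction under every alternative that gave a value, and 38 stayed past 2-fold there. There were 12 such alternatives for each gene except *Apold1*, which had 11, with no value at a stromal threshold of 3% of UMIs. The others were *Prg4* (0.31 to 1.72), *Rgs5*, and *Ppp1r14a*. *Ppp1r14a* turned to 0.029 without the cells of the pericyte, adipocyte, and erythroid lists, and *Rgs5*, itself in the pericyte list, came to -0.19. Not counting genes with more than 50% of their UMIs in 5 cells left 158 higher and 252 lower genes. Both of these alternatives were chosen after seeing the data. Members were 25.4% of stromal cells at a threshold of 3 UMIs per 10000 and 16.8% at 10. With a stromal threshold of 3% of UMIs, 45 members remained, which were 24.7% of stromal cells, and 121 genes were higher. A minimum of 20 UMIs gave 475 higher and 723 lower genes, and 2-fold on the nearer bound of the interval gave 108 and 132. The 3% threshold and the minimum of 20 UMIs also change how many genes are compared, so their counts are not shares of the same set of genes. The median ratio of the tendon markers was 3.03 at the 3% threshold, 2.85 without the highest doublet scores, 2.91 without the 3 lists, 2.98 with every cell weighted equally, 3.86 against stromal cells at 0 UMIs of the rule genes, and 2.84 when centred on the median gene. *Thbs4* led in 94.4% of the 54 members left when 5 marker lists of other cell types were applied, which removed 63 members, mostly through *Pmp22*. The other summary values were within 1.5 times or within the counting interval. With 1 library, spread between mice is unknown, and thinned shares of rare transcripts such as *Scx* changed with depth, from 3.42% at 1000 UMIs to 12.0% at 2000.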
